A study of Mus musculus with 12 samples.

Results

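The regions described here are 1459 places in the mouse genome that carried a Mediator peak in every one of 8 ChIP-seq libraries. They stood lower in rank after RAF was switched on for 2 h than in untreated cells, in all 4 pairs of libraries. They were selected on the peak scores themselves. The 8 deposited peak lists were merged wherever peaks overlapped by at least 1 bp, which gave 78166 regions, and 17027 of these held a peak in all 8 libraries (the common regions). In each library the common regions were ordered by their best peak score and given a percentile, from 0 for the lowest to 100 for the highest. A region was kept if its percentile at 2 h was at least 15 points below that at 0 h in all 4 pairs, that is in clones a and b for MED1 and in clones a and b for MED24. The 1459 kept regions are 8.57% of the common regions. Only 11535 common regions stood high enough at 0 h, at percentile 15 or more in all 4 libraries, to be able to fall that far, and the falling regions are 12.6% of those.

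The cells were E14tg2a mouse embryonic stem cells of 129SV background with a stably integrated cRAF-ErT2 cassette, a RAF kinase that 4-hydroxytamoxifen (4OHT) switches on and that activates ERK signalling. They were grown in serum, LIF and 2 µM of the GSK3 inhibitor Chir99021, and for the last 24 h in serum and LIF with PD173074, an inhibitor of FGF receptors, at 250 nM. The groups were MED1 with 250 nM 4OHT for 2 h, MED1 untreated (0 h), MED24 with 250 nM 4OHT for 2 h and MED24 untreated (0 h), each with 1 library of clone a and 1 of clone b. MED1 was precipitated with its own antibody and MED24 with anti-FLAG. All groups carried the RAF cassette and had received PD173074, and no library of vehicle-treated or cassette-free cells was analysed here, so 4OHT, the time and ERK activation cannot be told apart. The model is 2 clones of 1 line. In bulk chromatin, fewer cells with Mediator at a site and less Mediator in each cell cannot be told apart.

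Mediator is a large complex that links transcription factors bound at enhancers to RNA polymerase II at promoters, and MED1 and MED24 are subunits of it. In embryonic stem cells it is dense at enhancers bound by the pluripotency factors, which include OCT4, SOX2, NANOG, the KLF factors, ESRRB and TFCP2L1. LIF acts through STAT3 to keep these cells in the naive state, and FGF through ERK signalling moves them out of it.

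No test was made on the rank shift, since it is what chose the regions, and every rank value below is a description. The lists hold 43949 and 47305 peaks for MED1 at 2 h in clones a and b, against 38668 and 37483 at 0 h, and 42445 and 48931 for MED24 at 2 h, against 41689 and 38398 at 0 h. Read numbers are not in the lists, so sequencing depth is unknown, and its part in the shifts was not tested. The MED1 and MED24 libraries of the same clone and time were not independent. The difference between clones a and b in percentile had a Spearman correlation of 0.234 between MED1 and MED24 at 2 h and of 0.238 at 0 h, over the 17027 common regions, but of -0.008 between MED1 at 2 h and at 0 h and -0.007 between MED24 at 2 h and at 0 h. All 8 embryonic stem cell marker genes looked at had common regions nearest to them, 34 in all. None was found for 4 of 5 fibroblast markers, 3 of 5 trophectoderm markers and 4 of 5 primitive endoderm markers. Of all 21887 protein-coding genes, 10522 had a common region. On the longer lists used below, 4 of 11 fibroblast, 6 of 12 trophectoderm and 8 of 19 primitive endoderm genes had one. The marker counts therefore say little about cell identity.

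Of the regions whose promoter sequence could be read, those with STAT letters are shown first; STAT3 carries the LIF signal in these cells, and this motif was singled out of the 10 searched after their shares were seen. Sequences are from RefSeq promoters of GRCm38.p6, the assembly that mm10 stands for, which cover 250 bases before and 50 after a start site. No start sites were available for 477 common regions, 55 of them falling. Of the remaining 1404 falling regions 150 held a start site. The letters TTCCNGGAA, which read the same on both strands, were in the 250 bases before a start site in 7 of these 150 regions (4.67%), in 3 of 275 regions that rose in all 4 pairs (1.09%) and in 73 of 6788 common regions with a start site (1.08%). Counted by promoter the shares were 4.02% of 199 in falling regions, 0.89% of 337 in rising regions, 0.939% of 8624 in common regions and 0.95% of all 21263 promoters in the table. Each match in the falling regions is given with 20 bases on either side, or as far as the start site. The STAT letters are in capitals, on the strand of the gene. None of the matches overlapped a match to the full ETS letters CCGGAAGT. The forms TTCCCGGAA and TTCCGGGAA hold CCGGAA, the start of those letters, on the same or the opposite strand. This check therefore cannot tell STAT from ETS letters there.
Icam1, chr9:21015878-21015926, plus strand: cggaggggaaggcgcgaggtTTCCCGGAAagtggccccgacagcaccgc
Ripk1, chr13:34002746-34002794, plus strand: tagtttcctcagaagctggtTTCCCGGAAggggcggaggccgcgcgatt
Ripk1, chr13:34002843-34002873, plus strand: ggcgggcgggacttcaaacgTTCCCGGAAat
Nsmce1, chr7:125491604-125491652, minus strand: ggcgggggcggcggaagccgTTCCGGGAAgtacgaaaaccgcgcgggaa
Prodh, chr16:18089219-18089267, minus strand: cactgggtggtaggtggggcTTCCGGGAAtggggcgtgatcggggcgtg
Nsun4, chr4:116053812-116053859, minus strand: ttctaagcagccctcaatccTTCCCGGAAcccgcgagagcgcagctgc
Nfkbid, chr7:30421544-30421592, plus strand: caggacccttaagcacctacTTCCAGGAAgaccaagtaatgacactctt
Txnrd1, chr10:82860248-82860296, plus strand: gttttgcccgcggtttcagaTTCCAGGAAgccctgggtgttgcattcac

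Among these, Icam1, an adhesion molecule of the cell surface, fell furthest. The region over its promoter stood at percentile 12.8 and 6.3 for MED1 and 26.1 and 31.3 for MED24 at 2 h in clones a and b, against 74.4 and 78.2 for MED1 and 85.0 and 77.7 for MED24 at 0 h. The region that holds the start site of Ripk1, a kinase of death receptor signalling, also overlaps Serpinb6a, so that it cannot be given to either gene. Its mean shift was -47.96 points. Mean shifts at the others were -42.33 at Prodh, the mitochondrial proline dehydrogenase, -40.47 at Nsmce1, a subunit of the SMC5/6 complex, -34.69 at Txnrd1, a thioredoxin reductase, -27.03 at Nfkbid, an atypical IκB protein, and -25.96 at Nsun4, a methyltransferase of the mitochondrial ribosome. A match is a description of letters and not of a bound site.

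The same search was made with 9 other motifs, on both strands. The letters GGGTGTGG, which KLF factors bind, were in 8% of the 150 falling regions with a start site, 5.45% of the rising ones and 3.85% of the common ones. The AP-1 letters TGANTCA, bound by FOS and JUN proteins, were in 2.67% of falling, 13.5% of rising and 4.01% of common regions. The ETS letters CCGGAAGT were in 4.00% of falling, 5.82% of rising and 8.28% of common regions, and the NRF1 letters GCGCATGCG in 0 of 150 falling, 1.82% of rising and 4.24% of common ones. The CRE letters TGACGTCA were in 6% of falling and 3.79% of common regions, and the E-box CACGTG in 12.7% and 11.4%. The POU letters ATGCAAAT, the SOX letters ACAATGG and the ESRRB letters TCAAGGTCA were in 4, 3 and 1 of the 150 falling regions. The median GC content of the 250 bases was 59.6% in the promoters of falling regions and 62.4% in those of common regions. The start-site regions are a small part of the falling set, and the letters of the others could not be read.

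Of the start-site regions that fell furthest, the Icam1 promoter is shown whole, with its STAT letters in capitals. The promoters of Socs3, the feedback inhibitor of LIF signalling, and of Nanog are shown with it because the falling regions at these genes, described further on, lie over them. Neither holds any of the 10 motifs, which says only that these letters are not in these 250 bases.
Icam1, chr9:21015690-21015939, plus strand: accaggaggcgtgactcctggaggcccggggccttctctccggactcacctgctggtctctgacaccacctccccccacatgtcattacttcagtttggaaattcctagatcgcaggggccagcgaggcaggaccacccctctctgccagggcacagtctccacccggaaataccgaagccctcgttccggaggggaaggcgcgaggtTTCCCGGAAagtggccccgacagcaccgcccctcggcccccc
Socs3, chr11:117969367-117969616, minus strand: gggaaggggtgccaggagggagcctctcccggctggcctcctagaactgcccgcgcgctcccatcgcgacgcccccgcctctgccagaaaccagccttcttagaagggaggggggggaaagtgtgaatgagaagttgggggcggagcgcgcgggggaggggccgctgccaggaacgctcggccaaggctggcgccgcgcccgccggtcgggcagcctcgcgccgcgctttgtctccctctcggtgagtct
Nanog, chr6:122707239-122707488, plus strand: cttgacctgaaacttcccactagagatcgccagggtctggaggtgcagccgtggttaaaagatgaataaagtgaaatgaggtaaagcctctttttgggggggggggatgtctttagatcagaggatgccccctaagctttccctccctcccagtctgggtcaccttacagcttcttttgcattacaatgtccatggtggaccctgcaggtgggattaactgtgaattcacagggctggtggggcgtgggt

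The falling regions were high at 0 h and low at 2 h, and their peaks covered fewer bases at 2 h. Their median percentile for MED1 was 22.1 and 23.5 at 2 h in clones a and b, against 70.7 and 72.4 at 0 h. For MED24 it was 29.4 and 32.3 at 2 h, against 83.2 and 83.6 at 0 h. Falls of 15 points or more were frequent in any one pair: 25.0% of common regions fell so far for MED1 in clone a, 24.9% for MED1 in clone b, 24.8% for MED24 in clone a and 24.3% for MED24 in clone b. The opposite rule, 15 points or more up in all 4 pairs, took 1429 common regions, 8.39%. Both 2 h libraries lay below both 0 h libraries in 1442 falling regions for MED1 and in 1449 for MED24, where the share over all common regions was 31.0% and 30.5%, and in 1432 for both proteins, against 19.6% of common regions. The rule used these values and nothing is read from the difference.

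**Figure D1:**
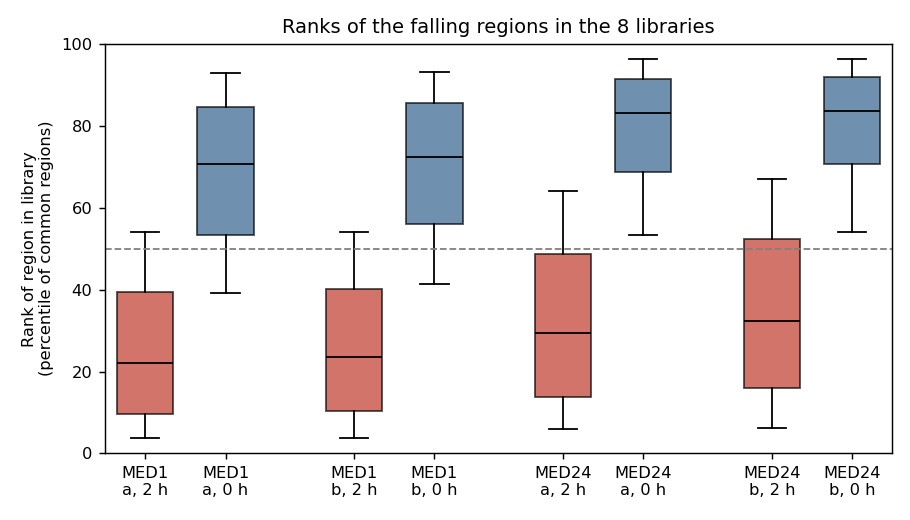
Percentile of the 1459 falling regions among the common regions in each library, with 2 h (red) left of 0 h (blue) within each protein and clone; the box spans the quartiles, the line is the median, whiskers reach the 10th and 90th percentiles of the regions, and the dashed line is the middle of the common regions. The medians lie between 22.1 and 32.3 at 2 h and between 70.7 and 83.6 at 0 h.

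The deposited scores are those the ranks were made from, so they describe the same fall and are no further support for it. They are 10 times the −log10 q of a peak in the MED1 lists and were read so in the MED24 lists, which do not state it. The median score in the falling regions was 117 and 127 for MED1 at 2 h, against 358 and 355 at 0 h, and 147 and 187 for MED24 at 2 h, against 634 and 596 at 0 h. The score was lower at 2 h in all 4 pairs in all 1459 falling regions, as in 19.9% of common regions. The median ratio of the 2 h to the 0 h score was 0.343 and 0.372 for MED1 and 0.248 and 0.315 for MED24, where the common regions had 0.950, 1.05, 0.993 and 1.24. MED1 lists also carry a fold enrichment per peak. Its median in the falling regions was 5.34 and 5.35 at 2 h, against 9.90 and 9.89 at 0 h. The bases covered by peaks in a falling region had a median of 419 and 467 bp for MED1 and 437 and 497 bp for MED24 at 2 h, against 824 and 833 bp for MED1 and 800 and 789 bp for MED24 at 0 h. The median ratio of covered bases, 2 h over 0 h, was 0.548 and 0.608 for MED1 and 0.567 and 0.659 for MED24. In common regions it was 0.940 and 1.00 for MED1 and 0.945 and 1.08 for MED24. Covered bases come from the same peak calls and are no separate support. The MED1 summit, the base of highest pileup, moved by a median of 42 and 43 bp between 2 h and 0 h in clones a and b. In common regions it moved by 50 and 52 bp. Between clones it differed by a median of 47 bp at 2 h and 30 bp at 0 h, against 43 and 48 bp in common regions.

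The mean of the 4 shifts had a median of -42.1 points over the falling regions and ran from -92.6 to -16.5. By pair, the median shift was -39.2 and -41.2 points for MED1 in clones a and b and -44.3 and -42.3 points for MED24. MED24 stood above MED1 in percentile at 0 h in 81.1% and 81.2% of falling regions in clones a and b, against 51.9% and 52.4% of common regions. At 2 h it did so in 63.9% and 67.7% of falling regions. The MED24 shift was below the MED1 shift in both clones in 510 falling regions and above it in both in 338, while over all 17027 common regions the counts were 4808 and 5146. The gap between clones in percentile had a median of 9.07 points for MED1 and 10.4 points for MED24 at 2 h, against 6.93 points for MED1 and 3.40 points for MED24 at 0 h. In common regions it was 8.07 and 8.03 points at 2 h, against 8.95 and 7.61 points at 0 h. Within the falling regions the Spearman correlation of shifts across regions was 0.397 between the clones for MED1 and 0.545 for MED24, over 1459 regions that share the same libraries. Over the common regions it was 0.540 and 0.621. Between MED1 and MED24 it was 0.430 in clone a and 0.398 in clone b in falling regions, against 0.626 and 0.618 in common regions. The rule used these shifts, so the values in falling regions are no test of agreement between clones.

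**Figure D2:**
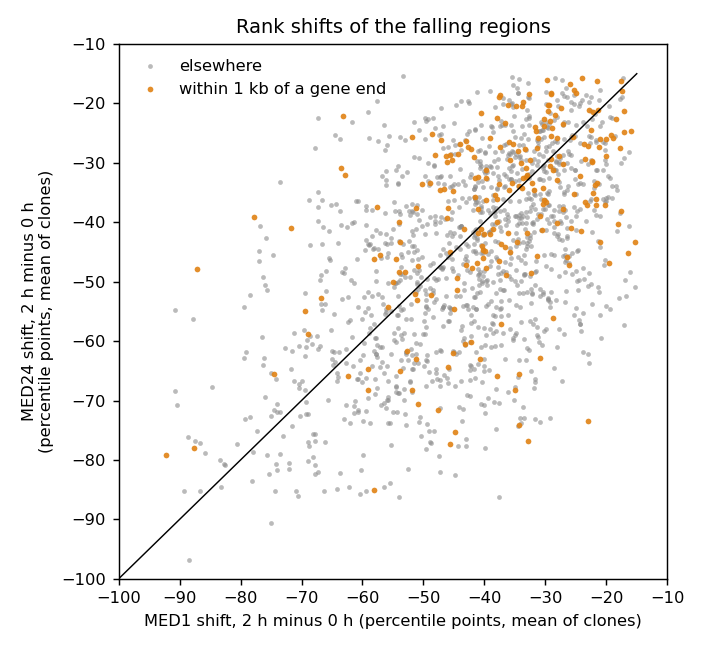
Shift of each falling region in percentile points, 2 h minus 0 h, as the mean of clones a and b, for MED1 (horizontal) and MED24 (vertical); regions within 1 kb of a gene end are orange, the others grey, and the line marks equal shifts. Points lie on both sides of the line: the MED24 shift was the lower in both clones in 510 regions and the MED1 shift in 338, while over all common regions the counts were 4808 and 5146.

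The rule has a sharp edge at 15 points. The 3 falling regions just inside it have a weakest shift of -15.01 points each and lie 195.541 kb from Naf1, inside Babam2 and 196.309 kb from Klf5. The 3 common regions just outside it, with a weakest shift of -14.98, -14.97 and -14.97 points, lie at an end of Kif2c, 113.725 kb from Med13l and inside Gm17359. The mean of the 4 shifts was -25.98, -25.52 and -24.12 points inside the edge and -36.27, -29.71 and -33.47 points outside it, so regions left out by 1 pair can have fallen as far as members.

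Positions were not used by the rule, and the falling regions lay away from promoters. Only 223 of 1459 (15.3%, exact 95% binomial interval 13.5 to 17.2%) lay within 1 kb of either end of a protein-coding gene, against 26.9% of the 1429 rising regions and 48.5% of the common regions. A further 32.9% lay inside a gene away from its ends, against 23.6% of common regions, and 40.8% lay between genes within 100 kb of one, against 22.5%. The remaining 161 regions (11%) had no protein-coding gene within 100 kb, against 5.34% of common regions. The median distance to the nearest start site was 30.9 kb for falling, 23.1 kb for rising and 6.14 kb for common regions. Neither the interval nor the shares treat regions as replicates of the treatment.

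The difference in position was also present within bands of rank at 0 h. Among common regions with a mean percentile of 80 to 100 at 0 h, 7.77% of those at gene ends fell, and 29.7% of those elsewhere. In the band from 60 to 80 the shares were 4.87% at gene ends and 25.2% elsewhere, from 40 to 60 they were 2.28% and 11.9%, and from 20 to 40 they were 0.637% and 1.47%. From 0 to 20, 0 of 2541 common regions fell. The decline towards low bands is built in by the rule, since a region must stand high to fall by 15 points. Over all bands 2.70% of common regions at gene ends were falling regions, 11.9% of those inside genes, 15.5% of those between genes and 17.7% of those far from genes. Rising regions were scarce at gene ends too, so this is not particular to the falling ones. They were 4.66% of common regions at gene ends, 11.4% inside genes, 12.4% between genes and 12.2% far from genes. Falling regions at gene ends also fell by less, with a median mean shift of -35.4 points, against -42.4 inside genes, -44.2 between genes and -44.5 far from genes. The rank at 0 h limits how far a region can fall, and these shifts were not compared within bands.

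**Figure D3:**
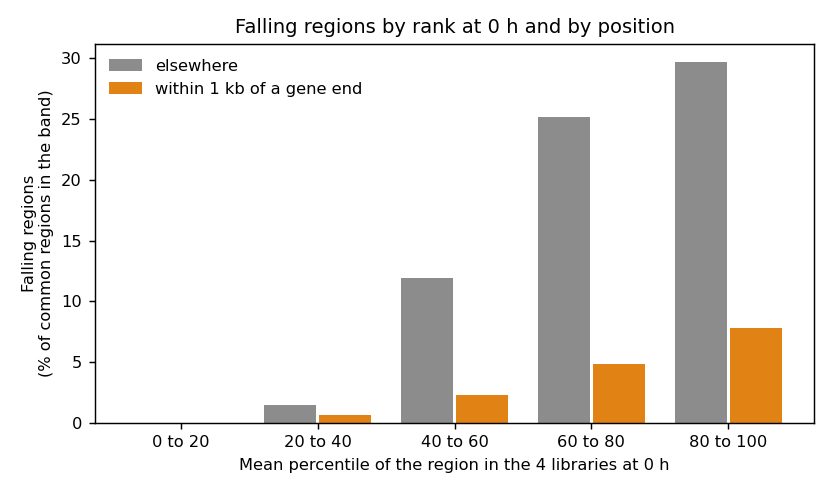
Falling regions as a percentage of the common regions in each band of mean percentile at 0 h, for regions elsewhere (grey) and within 1 kb of a gene end (orange). The share rises with rank at 0 h to 29.7% elsewhere and 7.77% at gene ends.

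Falling regions were spread over the genome, and falling and rising regions alike more often had a neighbour of their own kind than common regions did. The share of common regions that fell ran from 4.85% on chromosome 19 to 11.5%, and was 8.03% on the X chromosome. Of 1063 falling regions whose nearest common region lay within 50 kb, 170 had a neighbour that also fell (16.0%) and 70 a neighbour that rose (6.59%). Rising regions had a rising neighbour in 171 of 1068 cases (16.0%) and a falling one in 72 (6.74%), while common regions had a rising one in 8.87% and a falling one in 8.74%. Within 5 kb 21.4% of falling regions had a falling neighbour and 19.3% of rising regions a rising one, against 9.89% and 9.18% of common regions. A run was taken as consecutive common regions that all fell, each within 50 kb of the next, and a common region that did not fall ended it. By this count 1239 falling regions stood alone, 87 runs held 2, 14 held 3 and 1 run held 4.

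That run of 4 spans 36.7 kb, chr5:116386567-116423277, at Hspb8, a small heat shock protein. Its members had mean shifts between -30.47 and -82.76 points, and 1 of them was among the 12 that fell furthest of all. It was at percentile 10.1 and 4.6 for MED1 and 20.3 and 21.8 for MED24 at 2 h, against 94.6 and 95.4 for MED1 and 98.8 and 99.2 for MED24 at 0 h. Among the common regions it thus went from percentile 98.8 or above to 21.8 or below for MED24, in both clones.

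The region with the largest fall, by the weakest of its 4 shifts, lay 2.51 kb from Hoxc13, a homeobox gene of the HoxC cluster, at chr15:102931324-102932623. Its MED1 percentile was 4.6 and 2.3 at 2 h, against 91.2 and 92.7 at 0 h, and its MED24 percentile 0.4 and 1.0 at 2 h, against 97.6 and 97.5 at 0 h. In scores this was 61 and 51 for MED1 and 34 and 49 for MED24 at 2 h, against 716 and 741 for MED1 and 2080 and 1964 for MED24 at 0 h. A strong peak of both proteins had become one near the lowest score kept in the lists, which is 20.

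Xpnpep1, an aminopeptidase, had the next region, 19.017 kb away, with MED24 scores of 101 and 109 at 2 h, against 2554 and 3211 at 0 h. The region 2.429 kb from Krcc1 had MED24 scores of 80 and 108 at 2 h, against 2072 and 1161 at 0 h. The size of these falls is what put the regions first.

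A further 7 of the 12 lay 4.326 kb from Chst8, a sulfotransferase, inside Prkar2a, a regulatory subunit of protein kinase A, 3.153 kb from Ubr3, a ubiquitin ligase, 31.295 kb from H2bl1, 71.596 kb from LOC115488637, 103.416 kb from Galnt13 and 992.323 kb from Dnajb9. The last 2 have no protein-coding gene within 100 kb and are named only by the nearest one. Mean shifts of these 7 regions ran from -77.41 points near H2bl1 to -83.91 points near Chst8.

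Assigned to the nearest gene within 100 kb, 1298 falling regions fell to 1133 genes, and most genes had a single one. Leaving out unnamed gene models, 115 genes had 2, 19 had 3 and 4 genes had 4. Arid1b, a subunit of the BAF chromatin remodelling complex, had 4 falling among 7 common regions, with 1 rising, and a median mean shift of its falling regions of -54.93 points. Hspb8 had 4 of 5 with a median of -52.92. Hs6st1, which adds 6-O-sulfate to heparan sulfate, a co-receptor for FGF, had 4 of 6 with a median of -50.67. Magi1, a scaffold protein of cell junctions, had 4 of 13 with a median of -49.26, and 1 of its regions rose.

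Of 8 further genes with 3 falling regions each, Tfcp2l1 had 3 of 4 common regions, Kmt2e 3 of 6, Ncam1, a cell adhesion molecule, 3 of 5, and Zfp704 3 of 4. Nubpl, an assembly factor of respiratory complex I, had 3 of 4 and Irf2bpl 3 of 7; at Irf2bpl 2 others rose. Ppp1r9a, an actin-binding partner of protein phosphatase 1, had 3 of 8, with 1 rising, and Ddc, the aromatic amino acid decarboxylase, 3 of 5. The Ppp1r9a region at chr6:5118836-5120486 is an example. Its MED1 percentile was 18.5 and 40 at 2 h, against 95.9 and 97.6 at 0 h, and its MED24 percentile 37.7 and 39.8 at 2 h, against 97.5 and 98.2 at 0 h.

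The gene lists asked which known programmes the falling regions were near. The share of common regions that fell was 8.05% over all genes, 1298 of 16117 assigned regions. It was 25.0% at the naive pluripotency list (18 of 72, with 2 rising), 17.9% at the LIF STAT3 list (7 of 39, with 4 rising) and 12.2% at the core pluripotency list (10 of 82, with 8 rising). It was 4.00% at ERK immediate early genes (2 of 50, with 6 rising) and 6.12% at genes of ERK feedback (3 of 49, with 9 rising). Lists differ in rank at 0 h. Of regions at percentile 15 or more in all 4 libraries at 0 h, which could fall, 12% fell over all genes. On this base the share was 28.6% for naive, 22.6% for LIF STAT3 and 13.9% for core pluripotency. For ERK immediate early and ERK feedback genes it was 5.26% and 8.11%. The median mean shift over all common regions of a list was -8.24 points for naive, -5.09 for LIF STAT3, -6.69 for core, 0.415 for ERK immediate early and 5.57 for ERK feedback genes, against -0.282 over all genes. Gene lists were chosen with earlier results of these data known, regions of one gene are not independent, and no list was tested.

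**Figure D4:**
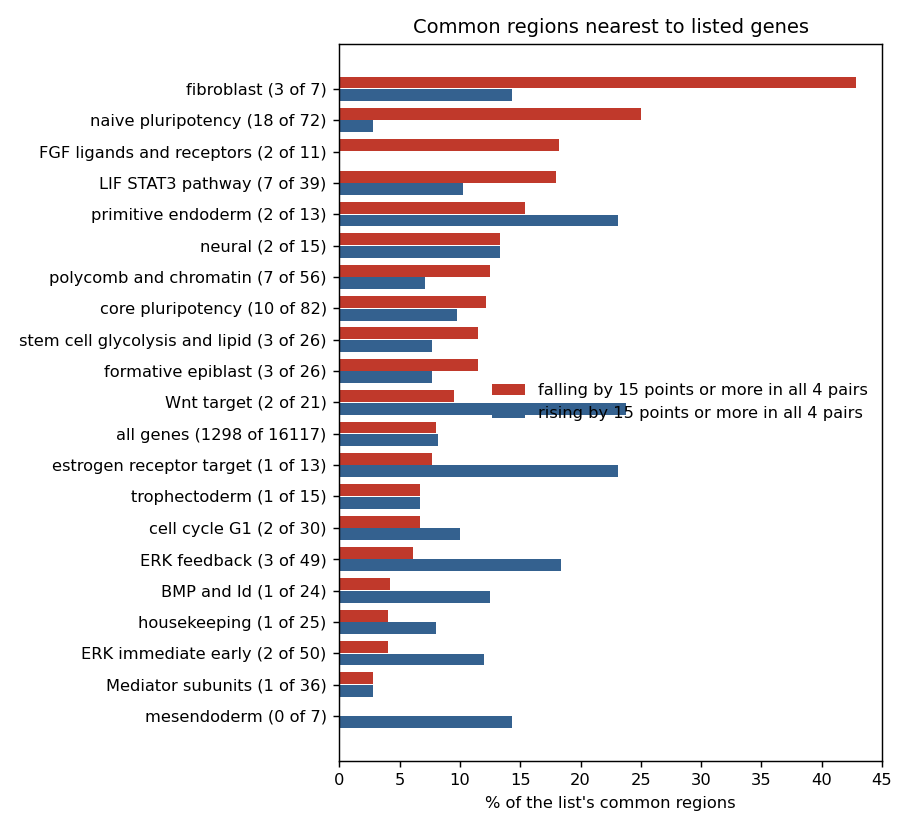
Percentage of the common regions nearest to genes of each list that fell (red, upper bar) or rose (blue, lower bar) by 15 points or more in all 4 pairs, with the number of falling and of common regions beside each list. Naive pluripotency reaches 25.0% falling, where all genes have 8.05%; the fibroblast bar stands for 3 of 7 regions, all at Fn1.

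At the naive list the 18 falling regions belonged to 11 of the 25 listed genes that have a common region. Away from gene ends 12 of the list's 53 common regions fell (22.6%), where the share over all genes away from gene ends was 13.7%; it was 12.9% for core pluripotency (8 of 62) and 11.5% for LIF STAT3 (3 of 26), both below that of all genes. Required to have exactly 1 peak in each of the 8 libraries (an alternative in which 976 regions fell), 3 regions at naive genes were left. The list also holds genes with no falling region, among them Klf4, with 4 common regions and mean shifts between -18.57 and -4.305 points, and Zfp42 (Rex1), with 8 common regions and mean shifts between -1.788 and 39.63 points.

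Tfcp2l1, a transcription factor of the naive state downstream of LIF, had 3 falling regions within 21.2 kb. The one 1.646 kb outside the gene, chr1:118625374-118626277, was at percentile 19.6 and 6.5 for MED1 and 17.3 and 13.0 for MED24 at 2 h, against 83.2 and 78.9 for MED1 and 92.9 and 88.7 for MED24 at 0 h. The 2 inside the gene had mean shifts of -60.45 and -58.56 points. The remaining common region of Tfcp2l1 was high at both times, at 86.4 and 78.6 for MED1 and 92.7 and 93.8 for MED24 at 2 h, against 97.8 and 97.7 for MED1 and 98.7 and 98.4 for MED24 at 0 h.

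Esrrb, an orphan nuclear receptor of the naive network, had falling and rising regions in the same gene. Its 3 falling regions had mean shifts of -32.24, -31.03 and -21.63 points. The highest of them at 0 h, chr12:86496692-86499542, was at 77.6 and 65.7 for MED1 and 83.0 and 83.7 for MED24 at 2 h, against 98.3 and 99.4 for MED1 and 99.0 and 99.7 for MED24 at 0 h. Another common region inside the gene went the other way, at 88.5 and 92.8 for MED1 and 87.0 and 94.0 for MED24 at 2 h, against 16.2 and 9.0 for MED1 and 13.1 and 14.4 for MED24 at 0 h. A gene's falling regions therefore do not describe all Mediator at that gene.

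Tbx3 and Prdm14, transcription factors of the naive state, and Klf5 each had a distal falling region that stood high at 0 h. These regions were at or above percentile 88.6 of the common regions in all 4 libraries at 0 h. The Tbx3 region, 82.599 kb from the gene, was at 28.5 and 24.9 for MED1 and 43.5 and 25.7 for MED24 at 2 h, against 97.6 and 99.2 for MED1 and 98.8 and 99.7 for MED24 at 0 h. The Prdm14 region, 27.526 kb away, was at 21.5 and 17.7 for MED1 and 38.1 and 70.4 for MED24 at 2 h, against 95.3 and 97.9 for MED1 and 98.7 and 99.3 for MED24 at 0 h. The Klf5 region, 25.411 kb away, was at 9.0 and 43.4 for MED1 and 18.8 and 58.8 for MED24 at 2 h, against 88.6 and 94.2 for MED1 and 95.8 and 97.9 for MED24 at 0 h. In the last 2 the clones stood apart at 2 h, with clone b higher for MED24 in both. Mean shifts of other common regions ran up to 16.87 points at Tbx3, -0.2371 at Prdm14 and 22.2 at Klf5, and none rose by the rule.

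Falling regions also lay over genes of this list. At Nanog the region over the promoter shown above, chr6:122706500-122710834, was at 35.3 and 40.3 for MED1 and 67.9 and 48.4 for MED24 at 2 h, against 84.9 and 88.5 for MED1 and 91.3 and 91.7 for MED24 at 0 h. Klf2 had a region over its start site, with a mean shift of -35.3 points, and one 7.497 kb away, with -33.76. Fgf4, the FGF that these cells make themselves, had 2 regions over its body and ends, with mean shifts of -51.26 and -34.09 points. Klf3 had 2, with -54.47 and -38.04, Dppa5a 1 with -33.26 and Dppa2 1 with -30.21 points.

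The core pluripotency list, genes expressed in naive and later pluripotent cells, had 10 falling regions at 8 genes. The region 1.965 kb from Sall4 was at 8.7 and 4.6 for MED1 and 5.4 and 22.9 for MED24 at 2 h, against 65.6 and 67.8 for MED1 and 66.4 and 74.5 for MED24 at 0 h. Genes with 2 regions were Otx2, a factor of the step after the naive state, with mean shifts of -51.13 and -50.69 points, and Zfp281 with -35.38 and -33.07. Sox2 had 1 of 6 common regions, 3.042 kb away, with a mean shift of -27.4 points. Single regions at Sall1, Mycn, Dnmt3l and Foxd3 had mean shifts of -54.86, -39.4, -37.26 and -26.29 points. Sall1 had 13 common regions, of which 3 rose, with a mean shift of up to 65.57 points. Mycn, Dnmt3l and Foxd3 had no rising region, and their highest mean shifts were 27.02, -20.03 and -8.118 points. Pou5f1, which encodes OCT4, had 2 common regions and neither fell, with mean shifts of -8.831 and -2.033 points.

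The LIF STAT3 list had 7 falling regions at 6 of its genes. Stat3 itself, the transcription factor that LIF activates, had a region over its start site, chr11:100938720-100940335, at 5.5 and 3.1 for MED1 and 53.0 and 46.5 for MED24 at 2 h, against 92.6 and 90.3 for MED1 and 97.7 and 97.5 for MED24 at 0 h. MED1 thus fell further in rank there than MED24 in both clones. The broad region over Socs3, chr11:117961936-117970235, was at 53.2 and 64.1 for MED1 and 37.4 and 58.5 for MED24 at 2 h, against 93.7 and 96.5 for MED1 and 96.7 and 96.9 for MED24 at 0 h. A second Socs3 region, 1.949 kb away, fell further, with a mean shift of -72.24 points.

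The region inside Bcl3, an IκB-like protein induced by STAT3, had MED24 scores of 59 and 182 at 2 h, against 2165 and 1808 at 0 h, and a mean shift of -74.55 points. Falling regions at the kinase genes Pim1 and Pim3 had mean shifts of -41.04 and -26.55 points, and the one over Spp1, which encodes osteopontin, -35.39 points. Pim1 had 8 common regions in all, of which 3 rose, with a mean shift of up to 65.49 points, so 3 of the list's 4 rising regions were at the same gene.

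**Figure D5:**
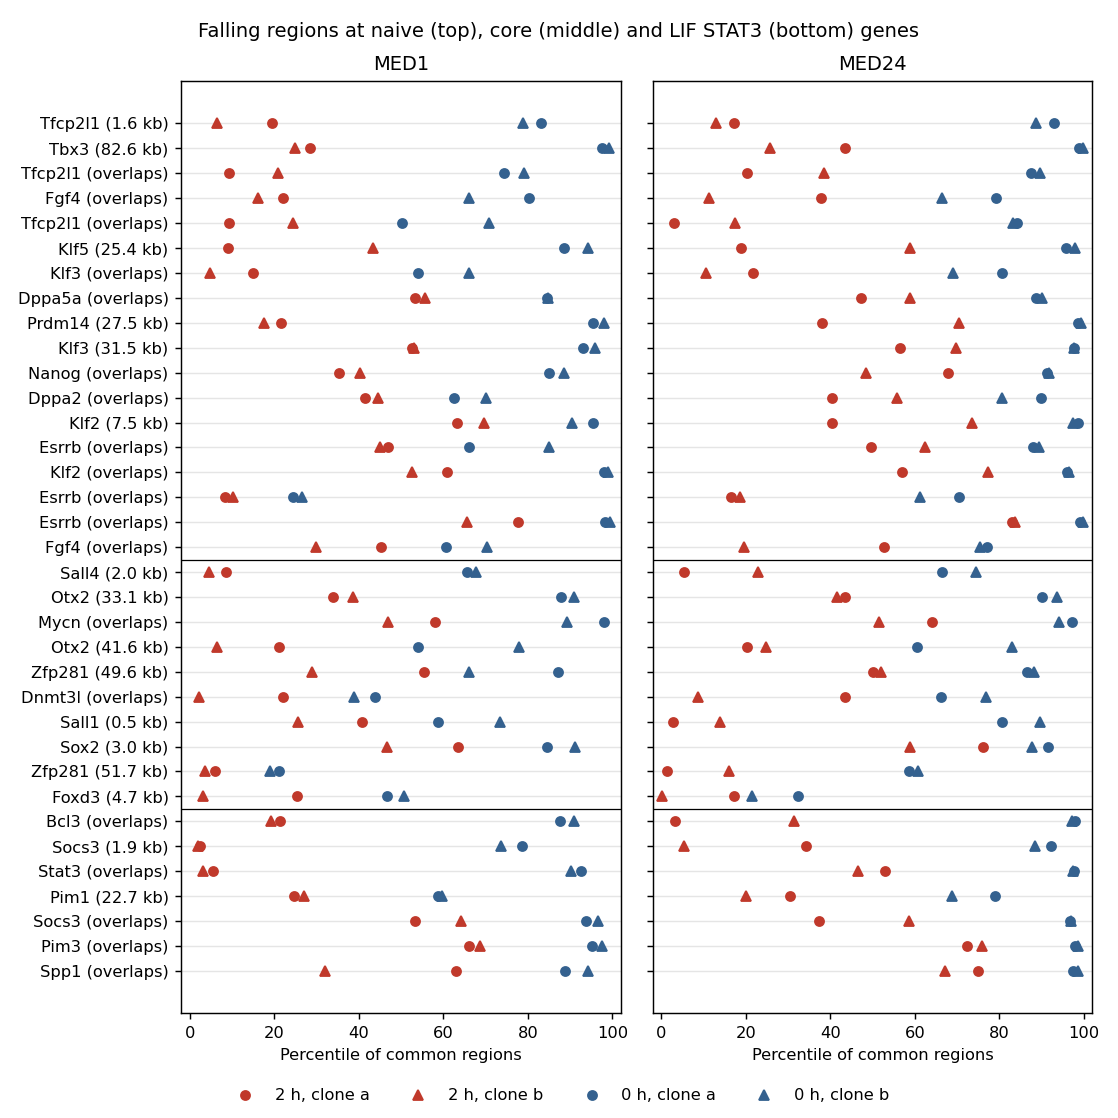
Percentiles of the falling regions nearest to naive pluripotency (top), core pluripotency (middle) and LIF STAT3 (bottom) genes for MED1 and MED24, at 2 h (red) and 0 h (blue), with clone a as circles and clone b as triangles; the distance from region to gene stands beside each name. In all rows both red symbols lie left of both blue ones, as in 1432 of the 1459 falling regions and 19.6% of common regions. The rule used these values and all but fixes this.

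ERK targets were among the falling regions too, although in small number. A region 21.308 kb from Fos, an immediate early gene of ERK signalling, was at 18.5 and 13.0 for MED1 and 59.3 and 45.4 for MED24 at 2 h, against 71.5 and 78.0 for MED1 and 97.2 and 95.2 for MED24 at 0 h. The other of the immediate early list lay at the end of Btg2, an antiproliferative gene, with a mean shift of -32.71 points. Of the feedback inhibitors of RAS and ERK signalling, Spry1, Spred2 and Spry2 had 1 each, with mean shifts of -54.18, -34.11 and -42.36 points.

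Of the remaining lists, genes of polycomb and chromatin had 7 falling among 56 common regions (12.5%). They were 3 at Arid5b, 2 at Eed, the core subunit of polycomb complex PRC2, 1 at its partner Mtf2 and 1 near Tet1, a 5-methylcytosine dioxygenase. The Tet1 region of 11218 bp had MED24 scores of 326 and 556 at 2 h, against 4348 and 3822 at 0 h. Of the 6 common regions at Eed 2 rose, with a mean shift of up to 43.11 points. Genes of glycolysis and lipid metabolism in stem cells had 3 of 26 (Ldhb, Hk2 and Slc2a3), formative epiblast genes 3 of 26 (2 at Otx2, 1 at Dnmt3b), and FGF ligands and receptors 2 of 11, both those at Fgf4. Primitive endoderm genes had 2 of 13 (Lamb1 and Dab2), neural genes 2 of 15 (Pax6 and Sox1), Wnt targets 2 of 21 (Tcf7l1 and Notum) and G1 cell cycle genes 2 of 30 (Cdc25a and Cdkn1a). A falling region each lay at Smad6 of the BMP and Id list (of 24), Tfap2c of trophectoderm (of 15), Nrip1 of estrogen receptor targets (of 13), Med26 of the Mediator subunits (of 36) and Eef1a1 of housekeeping genes (of 25), and 0 of 7 at mesendoderm genes. Most of these lists rest on few regions, and their shares were not tested against the 8.05% of all genes.

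MicroRNA clusters were looked at because the cluster of miR-290 to miR-295 is a mark of embryonic stem cells, and the 2 falling regions with 6 or more hairpins within 20 kb were chosen after their values were seen. Altogether 40 falling regions (2.74%) lay within 20 kb of a hairpin, against 4.29% of common regions. The mature arms below are RefSeq sequences, with the seed, bases 2 to 8, in capitals. miR-294-3p and miR-295-3p share a seed, and so do miR-20b-5p and miR-106a-5p of the X-linked cluster.
mmu-miR-294-3p, chr7:3220691-3220712: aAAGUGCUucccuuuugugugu
mmu-miR-295-3p, chr7:3220815-3220837: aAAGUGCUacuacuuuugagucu
mmu-miR-290a-3p, chr7:3218674-3218697: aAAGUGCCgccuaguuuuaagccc
mmu-miR-291b-3p, chr7:3219529-3219550: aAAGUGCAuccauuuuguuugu
mmu-miR-20b-5p, chrX:52742159-52742181: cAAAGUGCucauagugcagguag
mmu-miR-106a-5p, chrX:52742541-52742563: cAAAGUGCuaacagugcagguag

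The falling region beside the miR-290 cluster, chr7:3199516-3205911, lies 12.715 kb from Mir290a; the nearest protein-coding gene is Nlrp12. It was among the very highest regions at 0 h, with MED1 scores of 315 and 317 at 2 h, against 2665 and 2673 at 0 h, and MED24 scores of 352 and 717 at 2 h, against 5194 and 4636 at 0 h. Its percentile was 64.7 and 63.5 for MED1 and 68.2 and 84.5 for MED24 at 2 h, against 99.8 and 99.8 for MED1 and 100 and 99.9 for MED24 at 0 h. The next common region, chr7:3206082-3207842, had lower scores too, 793 and 754 for MED1 and 1308 and 1936 for MED24 at 2 h, against 2318 and 2043 for MED1 and 4112 and 3501 for MED24 at 0 h, yet its mean shift was -6.55 points and it is not a falling region by the rule.

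At the top of the rank scale scores are far apart and percentiles close. Of 413 common regions at or above percentile 95 in all 4 libraries at 0 h, 107 had a 2 h score of at most 0.5 times the 0 h score in all 4 pairs, and 42 of these were not taken by the rank rule. Over all common regions 831 had scores so reduced, 775 of them falling regions, while 684 falling regions did not reach that reduction in every pair. The region by the X-linked cluster, 2.699 kb from Mir106a, was in the middle of the MED24 ranks at 0 h, with MED24 percentiles of 7.4 and 18.9 at 2 h, against 47.0 and 48.5 at 0 h.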

How the data were processed

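MED1 and MED24 were mapped by ChIP-seq after crosslinking with 1% formaldehyde and 2 mM disuccinimidyl glutarate, per the labels' protocols; the 4 inputs are not analysed here. Per the submitters' processing notes, MACS2, Bowtie2 and bedtools were used with mm10. The sources used here do not give their versions or settings, or how the inputs entered. The authors deposited 1 peak list for each library. Per the file headers and layout, MED1 lists carry a deposited score, a fold enrichment (a ratio), −log10 p-value and −log10 q-value; the score was 10 times −log10 q, rounded down, in 100% of MED1 peaks. MED24 lists hold a deposited score only, read in the same way although not stated; their peak names carry FLAG and the name EP300, another cofactor, while the labels give MED24, and the labels were followed. The lowest score was 20 in each list.

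Regions, percentiles (ties at their mean rank) and shifts were computed with Python 3.11.15, numpy 2.4.6, pandas 2.3.3 and scipy 1.17.1, with steps tested on simulated data. Libraries were paired by the clone letter in the sample titles. Genes (21887 protein-coding spans, without strand or exons) and start sites (for 17492 of them) came from RefSeq tables of GRCm38.p6. Named genes are the 12 regions that fell furthest by their weakest shift, the 12 genes with most falling regions (gene models of Gm and digits or ending in Rik left out), listed genes with a falling region (all regions for pluripotency, up to 4 for other lists), and 3 regions on either side of the threshold; regions beyond 4 at LIF STAT3 and chromatin genes, regions that did not fall, the STAT windows and the Socs3, Nanog and microRNA sequences were chosen after values were seen. The regions and gene lists were chosen with earlier results of these data known. Of the 12 regions, 1 is not reported here. Precision is limited by 2 clones per group.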

Additional observations from a re-analysis of the deposited data

How the results depend on the processing

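The number of falling regions was 1459 as reported and stayed within 1.5 times that under most alternatives, from 976 with exactly 1 peak in each library to 1954 at 10 points. It was 614 at 30 points, 788 with peaks scoring 100 or more and 831 with the score reduced to at most 0.5 times in all 4 pairs, the last an alternative added after seeing the data. Without the replicate block, that is without pairing by clone, it was 2433 on group means, which included all 1459, and 1241 when every 2 h library had to lie below every 0 h library by the threshold. Leaving out 1 pair gave 1668 to 1845 regions. Among alternatives that redefine ranks, 1187 of the 1459 remained with MED1 ranked by fold and 1027 with percentiles over all peaks of a library.

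At naive genes the count of 18 became 7 at 30 points and 3 with exactly 1 peak in each library, 14 with assignment within 20 kb, and 18 to 23 without 1 pair. The share within 1 kb of a gene end, 15.3%, was 18.2% at 10 points, 12.2% at 20 points, 9.77% at 30 points, 13.2% with summed scores, 18.5% with scores of 100 or more, 9.94% with 1 peak in each library, 20.1% on group means, 19.7% with a window of 2 kb, 10.2% with scores reduced to at most 0.5 times, and 17.3 to 18.0% without 1 pair. Apart from scores of 100 or more and 1 peak in each library, these were compared with the share of the 17027 common regions. They lie below it, at 48.5% within 1 kb and 52% within 2 kb of a gene end. That share was not recomputed for alternatives that change the common regions. For scores of 100 or more and for 1 peak in each library it is therefore not a like comparison, and none is drawn. The cause of these differences was not tested. Unknown depth limits every comparison of scores between libraries.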
